A study of Mus musculus with 12 samples.

Results

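Osteopontin, the kinase Fam20c and 8 other genes of the extracellular matrix were described in brain myeloid cells of tau transgenic mice. The 10 genes (Spp1, Fam20c, Cd44, Lox, Fn1, Lgals3, Tgfbi, Timp2, Mmp12 and Mmp14) were taken by symbol from 36528 gene models counted in each library. They were chosen with the genotype contrast of these libraries known, so their differences between genotypes are given as a description and without a test. RNA came from Cd11b-positive cells sorted from brains of males aged 6 months. Of the 12 libraries, 6 were from mice carrying human tau with the P301S mutation (genotype hMAPT-P301S, here P301S). The other 6 were from non-transgenic littermates (NonTg). The labels used here do not give the promoter of the transgene, nor do they tie a library to 1 animal, so a p-value here reflects the spread of these samples, which may be partly technical. Both groups share the Cd11b gate, which collects microglia and can also hold border macrophages, monocytes and granulocytes. In such bulk samples a change in the number of cells that express a gene and a change in RNA per cell cannot be told apart.

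Osteopontin is a secreted phosphoprotein that binds integrins through an RGD site and also binds Cd44, the hyaluronan receptor. Fam20c is the Golgi kinase that phosphorylates osteopontin and many other secreted proteins. Fibronectin (Fn1) and the protein encoded by Tgfbi are adhesive matrix proteins, lysyl oxidase (Lox) cross-links collagen and elastin, and galectin-3 (Lgals3) is a lectin of macrophages and activated microglia. Mmp12 encodes macrophage elastase, Mmp14 encodes a membrane-anchored metalloproteinase that activates Mmp2, and Timp2 encodes an inhibitor of these enzymes that also takes part in that activation. In brain, osteopontin and galectin-3 are known from activated microglia around plaques, after injury and in developing white matter.

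Total counts per library ran from 1196069 to 4145069. CPM below are counts scaled to library size with TMM factors. The 8 microglial markers (among them P2ry12, Tmem119 and Cx3cr1) summed to 9074 to 12290 CPM in NonTg and 4174 to 6238 CPM in P301S, the highest sum of any marker list in both groups, and the groups did not overlap. Border macrophage markers lay at 10.1 to 84.1 CPM in NonTg and 20.3 to 50.3 CPM in P301S, and monocyte markers at 17.8 to 73.8 and 7.93 to 64.5 CPM. Neutrophil markers summed to 0.914 to 74.7 CPM in NonTg and 1.61 to 27.0 CPM in P301S. Fibroblast markers summed to 2.03 to 26.0 CPM in NonTg and 0.317 to 26.0 CPM in P301S. Of the 8 monocyte markers Ly6c2 and Plac8 had no count in any P301S library. They were nearly absent from NonTg too, with Ly6c2 only in NonTg 2 (0.392 CPM) and Plac8 only in NonTg 5 (2.43 CPM). Of the 7 fibroblast markers Slc6a13 had no count in any library. Astrocyte markers summed to more, at 124.4 to 689.8 CPM in NonTg and 153.6 to 707.5 CPM in P301S. Oligodendrocyte markers summed to 183.8 to 284.5 and 182.3 to 487.3 CPM, and neuron markers to 54.2 to 164.2 and 25.6 to 148.1 CPM. The sums of the 11 lists other than the microglial one overlapped between the genotypes, but the single markers Gfap and Flt1 did not. The astrocyte marker Gfap lay at 0.785 to 6.09 CPM in NonTg and 11.1 to 23.2 CPM in P301S, and the endothelial marker Flt1 at 0.914 to 9.74 and 11.6 to 77.0 CPM. The other markers of these lists did not follow them. Aqp4, Slc1a2, Slc1a3, Gja1 and Aldoc overlapped between the groups, as did the endothelial markers Ly6c1, Slco1a4 and Cdh5. Cldn5 had no count in any library, and Pecam1 lay at 2.03 to 23.5 CPM in NonTg and 0 to 13.8 CPM in P301S. Mitochondrial genes took 15.5% ± 3.36 of counts in NonTg and 25.0% ± 6.91 in P301S (SD, n = 6 each). The part of the lower microglial markers, of Gfap and Flt1 or of the mitochondrial share in the differences below was not tested. Libraries NonTg 2, P301S 4 and P301S 6 also held reads of islet hormone genes. In them the insulin genes Ins1 and Ins2 and the amylin gene Iapp lay at 34.8 to 586.7 CPM, and in the other 9 libraries at 16.0 CPM or less. Values without these 3 libraries are given below for some of the genes only.

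The sequences before 3 gene starts are shown, those of Spp1 and Mmp12 because they share a string bound by a myeloid factor and that of Fam20c because it is rich in G and C. Windows of 250 bases before a RefSeq gene start (GRCm38.p6) were searched on both strands for GAGGAAGT, a string bound by PU.1, and for the AP-1 string TGANTCA, the E-box CACGTG and the RUNX string TGTGGT. None of the matches below overlapped another. Capitals mark the matches. Spp1 is shown from chr5:104434861-104435110 on the plus strand, Mmp12 from chr9:7344147-7344396 on the plus strand and Fam20c from chr5:138754831-138755080 on the plus strand.

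Spp1: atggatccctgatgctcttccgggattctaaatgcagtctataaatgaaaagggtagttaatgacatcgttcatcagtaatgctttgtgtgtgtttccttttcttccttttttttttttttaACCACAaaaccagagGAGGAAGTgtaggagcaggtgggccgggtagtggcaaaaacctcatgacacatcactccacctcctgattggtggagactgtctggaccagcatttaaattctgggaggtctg

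Mmp12: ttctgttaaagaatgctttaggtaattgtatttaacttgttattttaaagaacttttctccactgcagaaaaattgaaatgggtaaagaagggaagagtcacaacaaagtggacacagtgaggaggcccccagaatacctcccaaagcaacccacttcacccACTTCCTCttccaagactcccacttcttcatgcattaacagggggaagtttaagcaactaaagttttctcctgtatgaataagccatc

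Fam20c: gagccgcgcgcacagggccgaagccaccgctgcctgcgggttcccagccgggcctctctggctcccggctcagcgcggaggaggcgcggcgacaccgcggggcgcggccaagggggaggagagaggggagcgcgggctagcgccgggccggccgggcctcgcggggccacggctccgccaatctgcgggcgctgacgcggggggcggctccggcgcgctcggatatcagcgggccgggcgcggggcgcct

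The PU.1 string stood on the strand shown for Spp1 and on the other strand for Mmp12. Its base farthest from the gene start lay 113 bases before the Spp1 start and 88 bases before the Mmp12 start. The PU.1 string stood in 2 of the 10 windows found for 8 of the members and in 2.44% of 32851 windows of all genes. A RUNX string stood on the other strand before Spp1 and Mmp14 (14.0% of all windows), with its farthest base 128 and 114 bases before the gene start. The AP-1 string stood in the window of a second Mmp12 start (6.75% of all windows) and the E-box in no member window (6.02%). The Fam20c window held none of these letters. G and C made up 81.2% of its bases and 43.6% of those of Spp1, and the median of all windows was 52.4%. A match of letters is not a measured site. Lox and Fn1 had no entry.

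Spp1 and Fam20c, the ligand and its kinase, were almost silent in NonTg and present in every P301S library. Spp1 (Entrez 20750, chromosome 5, 104435111 to 104441053 of GRCm38) lay at 0.268, 0.762 and 1.83 CPM in NonTg as lowest, median and highest library, from 8 counts in all 6 together. In P301S it lay at 167.8, 265.1 and 441.5 CPM, from 4388 counts. The groups were far apart, with P301S 4 highest and P301S 6 lowest. The log2 fold change of Spp1 was 8.57 ± 0.42 (SE), the highest of all genes fitted. Fam20c (Entrez 80752, chromosome 5, 138755081 to 138810063) had no count in 3 NonTg libraries, a median of 0.203 CPM and 3.56 CPM in NonTg 4. In P301S it lay at 19.4, 26.3 and 38.6 CPM, with P301S 6 highest and a log2 fold change of 5.23 ± 0.86. Without NonTg 4, which held 5 of the 7 NonTg counts, that fold change was 6.82. Between P301S libraries the SD was 23.2% of the mean for Fam20c and 33.6% for Spp1.

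Lox and Lgals3, an enzyme that hardens matrix and a lectin that binds its sugars, each had 1 count in NonTg. Lox (Entrez 16948, chromosome 18) was counted once in NonTg 3 and 342 times in P301S, at 6.45, 10.9 and 43.9 CPM. The ratio of the groups, from counts summed over the libraries of each group, was 249. Its 95% interval, for counting error alone, ran from 44.4 to 9855. In the fit the log2 fold change of Lox was smaller than this ratio, at 6.99 ± 1.08. P301S 1 and P301S 2 held the most Lox, at 25.4 and 43.9 CPM, and the other 4 lay at 12.1 CPM or less. Lgals3 (Entrez 16854, chromosome 14) was counted once in NonTg 5 and 213 times in P301S, at 1.90, 11.7 and 31.1 CPM, with P301S 3 highest and P301S 5 lowest. Its ratio was 155 with an interval of 27.5 to 6149. All P301S libraries lay above all NonTg libraries in both genes. Lgals3, with 6 counts in P301S 5 and 14 in P301S 4, did not pass the filter on low counts and has no value in the fit used here. In the 8 alternative fits that kept Lgals3, its log2 fold change ran from 6.21 to 8.09 (6.57 with no filter on low counts), the highest without NonTg 5, which held the single NonTg count.

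Timp2 was the most even of the 10 genes, with the smallest SD relative to its mean in both groups. Timp2 (Entrez 21858, chromosome 11) lay at 55.2, 98.0 and 151.1 CPM in NonTg and at 171.0, 210.7 and 263.3 CPM in P301S. The groups did not overlap, though NonTg 6 came close to P301S 4. The log2 fold change was 1.17 ± 0.25, and the SD between P301S libraries was 14.5% of the mean.

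The protease genes Mmp14 and Mmp12 overlapped between the groups. Mmp14 (Entrez 17387, chromosome 14) lay at 7.13, 13.5 and 36.5 CPM in NonTg and at 4.88, 20.2 and 34.4 CPM in P301S, with a log2 fold change of 0.24 ± 0.56. Both the highest library, NonTg 2, and the lowest, P301S 2, went against the difference of the medians. Mmp12 (Entrez 17381, chromosome 9) lay at 0, 4.86 and 22.3 CPM in NonTg and at 0.544, 6.85 and 23.1 CPM in P301S (log2 fold change 0.32 ± 0.93). NonTg 1 and P301S 2 stood above the rest of their groups. Without P301S 2 the log2 fold change of Mmp12 was -0.31, and without NonTg 1 it was 1.30.

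Cd44, Fn1 and Tgfbi, a receptor and adhesive proteins, overlapped between the groups, each with 1 NonTg library far above the others. Cd44 (Entrez 12505, chromosome 2) lay at 0, 3.15 and 34.9 CPM in NonTg and at 10.5, 15.2 and 47.5 CPM in P301S, with a log2 fold change of 1.46 ± 0.78. NonTg 2 was the highest NonTg library, and only P301S 1 and P301S 2 stood above it. Without NonTg 2 the log2 fold change of Cd44 was 3.03, and without the 3 libraries with islet hormone reads it was 3.29. Fn1 (Entrez 14268, chromosome 1) lay at 0, 1.58 and 284.9 CPM in NonTg and at 3.25, 19.1 and 29.6 CPM in P301S. A single library, NonTg 2, held 726 of the 747 NonTg counts, and the others lay at 10.5 CPM or less. The log2 fold change of Fn1 was -1.52 ± 1.48 with all libraries, and 2.73 without NonTg 2, so this library set its sign in the edgeR fit. With limma voom and all libraries the value for Fn1 was 1.84, so the sign also depended on the method. In NonTg 2 the border macrophage, monocyte and fibroblast markers (21.2, 50.6 and 10.2 CPM) lay within the range of the other NonTg libraries, while Ins1 lay at 345.3 CPM. In P301S 4, with 586.7 CPM of Ins1, Fn1 lay at 20.0 CPM. The part of the islet hormone reads in the Fn1 level of NonTg 2 was not tested. Tgfbi (Entrez 21810, chromosome 13) lay at 4.06, 14.0 and 102.3 CPM in NonTg and at 2.55, 6.41 and 36.2 CPM in P301S, with a log2 fold change of -1.08 ± 0.72. NonTg 3 was the high NonTg library, and without it the log2 fold change of Tgfbi was 0.08. Without P301S 5, the high P301S library, it was -1.74.

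**Figure D1:**
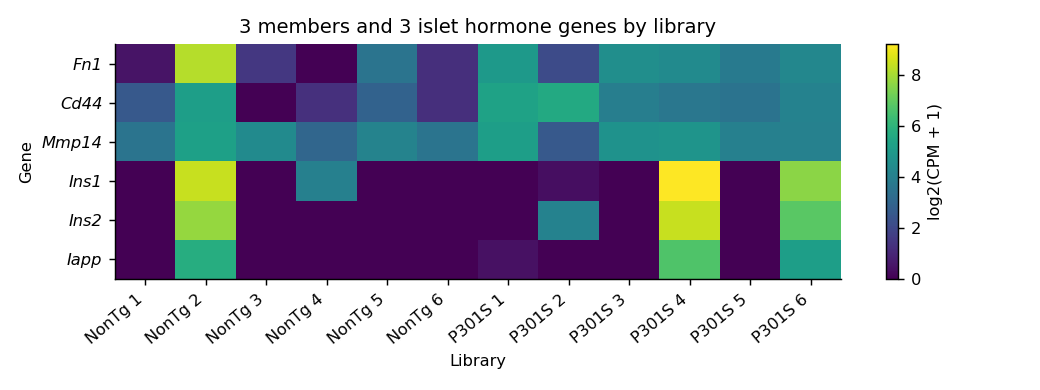
Colour gives log2(CPM + 1) of 3 members (Fn1, Cd44, Mmp14) and 3 islet hormone genes (Ins1, Ins2, Iapp) in each of the 12 libraries. NonTg 2 is the one NonTg library with high Fn1 (284.9 CPM), and it shares high islet hormone levels with P301S 4 and P301S 6, where Fn1 lies at 20.0 and 18.2 CPM.

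**Figure D2:**
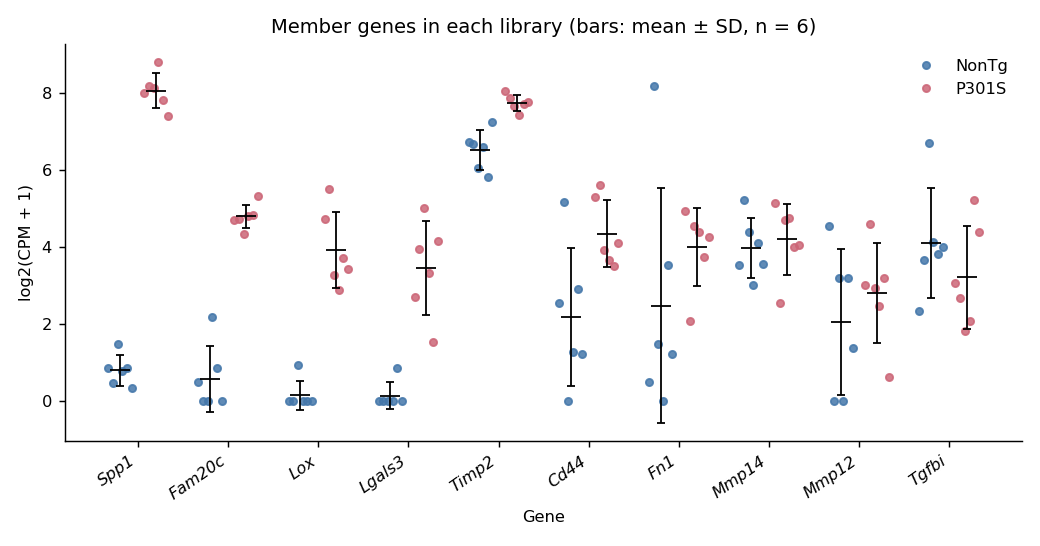
Level of each member as log2(CPM + 1) on the vertical axis, 1 point per library, 6 NonTg (blue) and 6 P301S (red), with the mean ± SD of these log2 values in black. Spp1, Fam20c, Lox, Lgals3 and Timp2 do not overlap between the groups, while Cd44, Fn1 and Tgfbi each have 1 NonTg library far above the rest (34.9, 284.9 and 102.3 CPM).

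**Figure D3:**
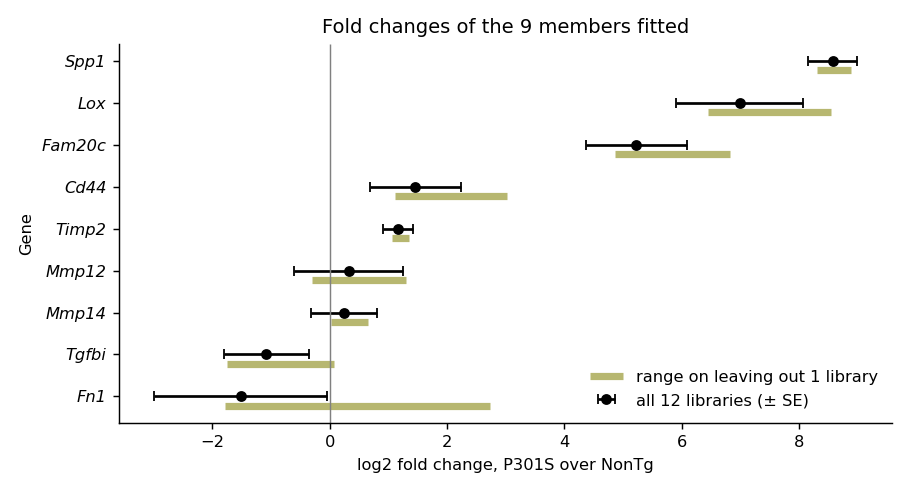
Log2 fold change of P301S over NonTg for the 9 members fitted (point ± SE, horizontal axis) and, under each, the range over the 12 fits that leave out 1 library. Fn1 runs from -1.78 to 2.73 and crosses 0, whereas Timp2 stays between 1.06 and 1.35.

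With edgeR's quasi-likelihood test at an adjusted p under 0.05, 4 of the 9 members fitted were called higher (Spp1, Fam20c, Lox and Timp2), where 2.37% of the 10022 genes fitted were. Of these 9 members 0 were called lower (1.50% of all genes), and 3.87% of all genes were called in either direction. In 5 of the 10 members (4 of the 9 fitted) all P301S libraries lay above all NonTg libraries, as they did for 2.24% of the genes fitted. Since the members were chosen on this contrast, nothing is read from these counts. The median log2 fold change was 1.17 over the 9 members and -0.02 over all genes.

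Compared per length, as RPKM adjusted by the authors for each sample, the order of the members differed between the groups. In P301S, Spp1 stood first at 37.3 ± 13.1 adjusted RPKM (SD, n = 6) and Timp2 next at 13.3 ± 1.76, each above the following gene without overlap. Lgals3 (2.09 ± 1.65), Mmp14 (1.74 ± 0.893), Fam20c (1.59 ± 0.370), Tgfbi (1.05 ± 1.12), Cd44 (0.893 ± 0.604), Lox (0.803 ± 0.652), Mmp12 (0.508 ± 0.466) and Fn1 (0.470 ± 0.237) followed, and each of these overlapped the next in range. In NonTg, Timp2 stood first at 5.88 ± 2.03 adjusted RPKM and Spp1 seventh at 0.109 ± 0.0756. Between them came Tgfbi (2.28 ± 3.15), Mmp14 (1.46 ± 0.916), Fn1 (1.32 ± 3.05), Mmp12 (0.411 ± 0.523) and Cd44 (0.318 ± 0.517), and below Spp1 came Fam20c (0.0466 ± 0.0815), Lgals3 (0.0218 ± 0.0534) and Lox (0.00700 ± 0.0172). All 9 neighbouring pairs of the NonTg order overlapped. Single libraries raised 2 of its means, NonTg 2 that of Fn1 (7.54, group median 0.0422) and NonTg 3 that of Tgfbi (8.67, group median 1.17). Within the same library Fn1 was above Mmp12 in 1 of 6 and Tgfbi above Mmp14 in 3 of 6.

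**Figure D4:**
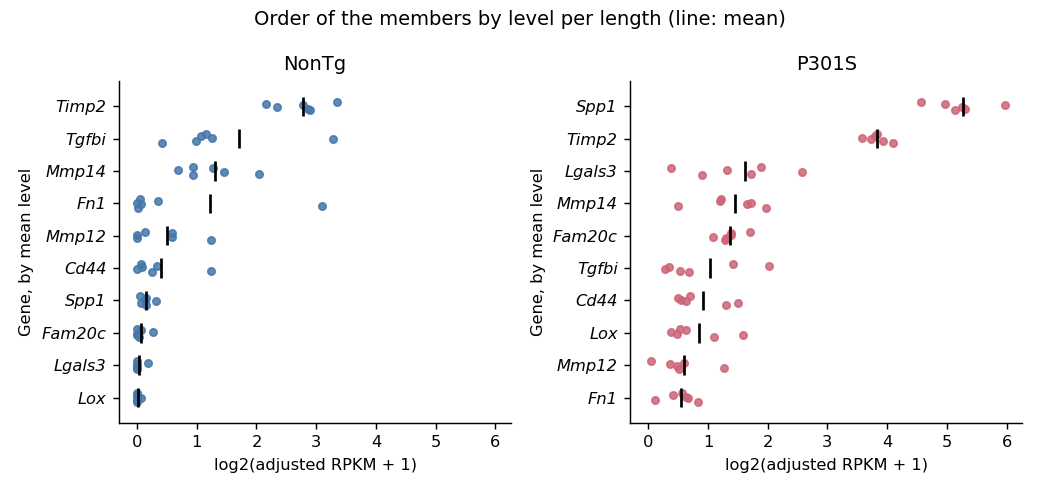
Members ordered by mean adjusted RPKM in NonTg (left) and P301S (right), 1 point per library on a log2(adjusted RPKM + 1) axis, with a line at the group mean. Spp1 moves from the seventh place in NonTg to the first in P301S, while Timp2 is first and second.

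Differences between P301S libraries were not used to choose the members. Over the 6 P301S libraries Spp1 was compared with the 9 others on log2 CPM, and none of the relations passed (exact permutation over 720 orders, smallest adjusted p = 0.788). The strongest was with Tgfbi (r = -0.73, exact p = 0.0875, rho = -0.77, exact p = 0.103), and r was -0.92 without the 2 libraries farthest from the median of Spp1. With Fam20c, r was -0.51 (exact p = 0.282, rho = -0.49, exact p = 0.356), and -0.57 without those 2 libraries. It was not stable, at 0.14 without P301S 6 alone and -0.89 without P301S 4 alone. Library P301S 4 had the most Spp1 and P301S 6 the least Spp1 and the most Fam20c. Of 7629 genes compared, those most like Spp1 over these 6 libraries were Ralgps1 (r = 0.99), 5031426D15Rik (0.98), Cdc27 (0.98), Entrez 102639682 (0.98) and Gm32497 (0.97). The exact permutation p of these 5, adjusted over all genes compared, was 0.441 or higher, and none passed. With 720 orders a single gene could not have passed an adjustment over 7629 genes, so this outcome says nothing about these 5.

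Other genes of the matrix pathways were read from 11 lists with 191 genes, none a member. Of the 70 that passed the count filter, 6 rose (8.57%) and 2 fell (2.86%) in P301S with edgeR's quasi-likelihood test, against 2.37% and 1.50% of all genes. The median log2 fold change of the 70 was 0.11. The lists were drawn up with earlier results of these data known.

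Among 7 tested integrin subunits of the kind that bind osteopontin or other RGD proteins, 1 rose and 1 fell (median -0.12). Itga5, whose product pairs with beta-1 as the fibronectin receptor, lay at 7.84, 19.1 and 28.4 CPM in NonTg and at 34.2, 65.6 and 120.7 CPM in P301S, without overlap. Itga5 rose by a log2 fold change of 1.88 ± 0.42 (adjusted p = 0.00797). Itga9, whose product binds osteopontin and tenascin, lay at 99.8, 127.6 and 158.1 CPM in NonTg and at 27.8, 51.5 and 89.5 CPM in P301S, again without overlap. Itga9 fell by 1.27 on the log2 scale (SE 0.30, adjusted p = 0.0130), and without the 3 libraries with islet hormone reads by 1.10, which was not called (adjusted p = 0.108). Itgav and Itgb3, which form the classical osteopontin receptor, did not pass, at log2 fold changes of -0.30 ± 0.29 and -0.75 ± 0.41 (adjusted p = 0.707 and 0.393). Nor did Itgb5 (0.69 ± 0.22, adjusted p = 0.0847), Itgb1 (0.39 ± 0.49) or Itga4 (-0.12 ± 0.53). Of 5 other matrix receptors tested the syndecan gene Sdc3, a heparan sulphate proteoglycan of the cell surface, measured 13.8 ± 6.48 CPM in NonTg and 54.7 ± 21.5 CPM in P301S and rose (log2 fold change 2.00 ± 0.45, adjusted p = 0.00797). The scavenger receptor gene Stab1 (-0.53 ± 0.27) and the dystroglycan gene Dag1 (-0.32 ± 0.70) did not pass (list median 0.02).

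The relatives of osteopontin were not called, and of those of Fam20c 1 was. Spp1 lies in a cluster of genes for mineral-binding phosphoproteins on chromosome 5. Of the 4 others, Ibsp had 2 counts in NonTg and 0 in P301S, Dmp1 5 and 3, Mepe 4 and 2, and Dspp 71 and 20, and none passed the count filter. The neighbours Pkd2, Sparcl1, Abcg2 and Ppm1k were tested. Of these 4, 0 passed with edgeR or DESeq2, and 0 had an unadjusted p under 0.05 (list median 0.12). Fam20a, a pseudokinase gene, had 4 counts in NonTg and 14 in P301S, and Fam20b, a xylose kinase gene of proteoglycan synthesis, lay at 8.23 ± 5.27 and 9.66 ± 15.5 CPM (log2 fold change 0.26 ± 0.78, adjusted p = 0.929). Among 4 secretory pathway kinases tested (median -0.38), Dipk2a rose from 9.08 ± 4.40 to 43.9 ± 50.4 CPM (2.28 ± 0.60, adjusted p = 0.0264). The large SD came from P301S 4 at 145.9 CPM. Without that library Dipk2a had a log2 fold change of 1.41 (adjusted p = 0.200), and omission of NonTg 1, NonTg 2 or NonTg 4 also ended the call (0.0537, 0.0518 and 0.0520). Dipk2a was not called with limma voom (1.84, adjusted p = 0.0997) or with limma on the adjusted RPKM (0.96, adjusted p = 0.136). Dipk1a (-1.96 ± 0.60, adjusted p = 0.0652) and Pomk (-1.02 ± 0.75) did not pass with edgeR, and DESeq2 called Dipk1a lower. Without the 3 libraries with islet hormone reads Dipk2a was not called (1.29, adjusted p = 0.340).

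Proteases other than the members were mostly too low to test. Of 20 other matrix metalloproteinase genes 2 passed the filter, and 0 were called with edgeR or DESeq2 or had an unadjusted p under 0.05 (median 0.46). Mmp2, the target of Mmp14, measured 7.90 ± 6.73 CPM in NonTg and 17.5 ± 9.14 CPM in P301S (log2 fold change 1.14 ± 0.74, adjusted p = 0.500), and Mmp19 had -0.23 ± 0.61. Mmp9, the gelatinase of leukocytes, had 41 counts in NonTg and 24 in P301S. Of 10 Adam and Adamts genes tested 0 passed with edgeR (list median 0.23). Adam8 was the 1 gene of this list with an unadjusted p under 0.05 and the 1 that DESeq2 called (log2 fold change 1.78 ± 0.66, adjusted p = 0.141 with edgeR). Adamts6 had -0.94 ± 0.55. In the plasminogen system Plaur, the urokinase receptor gene, rose from 1.27 ± 1.53 to 12.7 ± 8.08 CPM (3.18 ± 0.85, adjusted p = 0.0312). The Plaur call held on omission of NonTg 1, P301S 4 or P301S 6 and was lost on omission of any other library (highest adjusted p 0.0975). Plaur did not pass the count filter in the fit that left out mitochondrial genes and Malat1 or in the fit with a minimum count of 30. The urokinase gene Plau lay at 3.56 to 28.7 CPM in NonTg and 38.5 to 67.2 CPM in P301S without overlap, but did not pass with edgeR (1.52 ± 0.46, adjusted p = 0.0598), while DESeq2 called it. Of 7 genes tested in that list Plaur was the 1 that rose, 0 fell, and the median was 0.34. The inhibitor gene Serpine2 (0.90 ± 0.36, adjusted p = 0.184) and Timp3 (-1.20 ± 0.83, adjusted p = 0.534) did not pass, and Timp1 had 1 count in each group.

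Relatives of Lox, Lgals3 and Fn1 were low or did not pass, with 3 exceptions. Of 8 lysyl oxidase and collagen-processing genes tested 0 passed with edgeR, 2 at an unadjusted p under 0.05 (Pcolce, -2.21 ± 0.87, and the transglutaminase gene Tgm2, -1.47 ± 0.66) and 0 with DESeq2, with a median of 0.23. Loxl2 was counted 44 times in NonTg, all in NonTg 1, and 5 times in P301S. Of 3 galectin-list genes tested (median 0.33), Lgals3bp, which encodes a secreted galectin ligand, rose from 20.6 ± 6.45 to 205.8 ± 34.5 CPM (3.30 ± 0.29, adjusted p = 1.15e-08). Lgals8 (-0.04 ± 0.23) and Lgals9 (0.33 ± 0.40) did not pass, and Lgals1 had 11 and 12 counts. Of 14 matrix glycoprotein, collagen and proteoglycan genes tested 1 rose and 1 fell (median -0.39). Postn, which encodes the matrix protein periostin, a relative of the Tgfbi product, lay at 0, 0.798 and 8.93 CPM in NonTg and at 15.8, 34.4 and 63.7 CPM in P301S. Postn rose by a log2 fold change of 3.95 ± 0.79 (adjusted p = 0.00286), without overlap. Without NonTg 1 the value for Postn was 5.40, and with limma voom it was 5.13. Col27a1, a fibrillar collagen gene, fell from 579 ± 155 to 330 ± 124 CPM, by 0.81 on the log2 scale (SE 0.23, adjusted p = 0.0406). The Col27a1 call held on omission of NonTg 3, NonTg 4, P301S 2 or P301S 5 and was lost on omission of any other library (highest adjusted p 0.136). Col27a1 was also not called with limma on the adjusted RPKM (-0.77, adjusted p = 0.0732) or without the 3 libraries with islet hormone reads (-0.50, adjusted p = 0.392). Col6a3 (-1.67 ± 0.52, adjusted p = 0.0688) and Tnr (-0.60 ± 0.38) did not pass with edgeR, and DESeq2 called Col6a3 lower. Of 6 genes of TGF-beta supply tested, the pathway that induces Tgfbi, 0 passed with edgeR or DESeq2 and 0 had an unadjusted p under 0.05 (median 0.02), among them Tgfbr1 (-0.35 ± 0.18) and Eng (-0.81 ± 0.49).

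**Figure D5:**
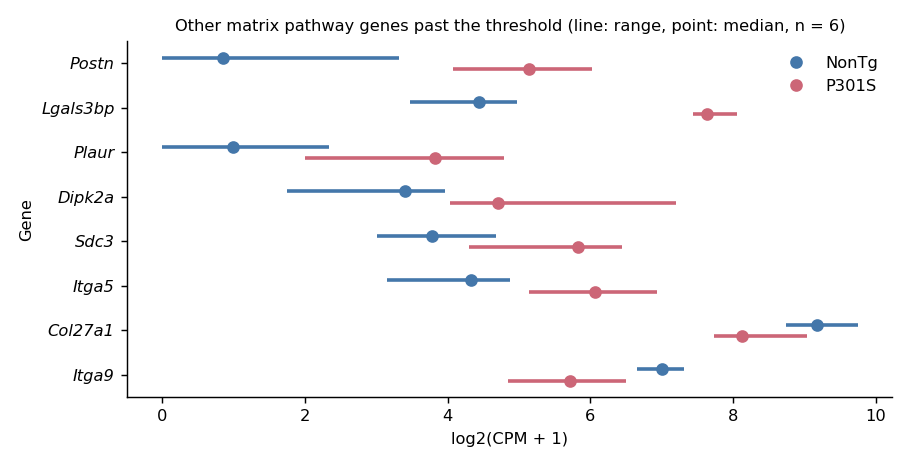
The 8 other matrix pathway genes past the threshold, as log2(CPM + 1) on the horizontal axis, with a line from the lowest to the highest and a point at the median of 6 NonTg (blue) and 6 P301S (red) libraries. Postn, Lgals3bp, Dipk2a and Itga5 lie wholly above NonTg and Itga9 wholly below, while Plaur, Sdc3 and Col27a1 overlap.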

How the data were processed

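RNA-seq libraries of sorted brain myeloid cells were analysed from 12 deposited tables, 1 per library. Counts are, per the file headers, the authors' uniquely aligned reads of each gene model. A further column gives RPKM, which the authors scaled with sample-wise size factors according to those headers. GSNAP and GRCm38 are named in the submitters' processing notes, while no source used here gives the counting tool, annotation release or strandedness. Both columns carry the same measurement (largest log deviation from a product of library and gene constants 1.92e-14). Symbols and positions were taken from RefSeq for GRCm38.p6 by Entrez number (31049 of 36528 numbers matched, and all 10 members). Promoter windows are RefSeq's of the same build.

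The members and lists were chosen with earlier results of these data known. Genotype labels set the groups. Replicate numbers follow record order and are names only. No 2 libraries of one genotype looked like a repeat deposit, since the smallest ratio of chi-square to degrees of freedom was 18.2. Genes were kept by filterByExpr (minimum count 10), scaled by TMM and fitted with edgeR 4.0.16 in R 4.3.3 (quasi-likelihood, robust), with Benjamini-Hochberg adjustment over 10022 genes and a threshold of 0.05. The fit was tested on simulated data. The SE is the log2 fold change over the square root of its F statistic. Log2 CPM used a prior count of 2. The biological coefficient of variation was 0.640, so the spread between libraries limited precision, and for genes with few counts counting error did too. Intervals on counts cover counting error only.

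Named in the text were all members, in each list up to 6 genes past the threshold and 2 that did not pass, and a fixed set of relatives. Also named were the 5 genes most like Spp1 among those with at least 10 CPM in P301S. The 4 phosphoprotein relatives of Spp1, its neighbours and the islet hormone genes were named after their values were seen. Alternatives were other scalings, other filters on low counts, DESeq2 1.42.0, limma 3.58.1 (voom, and log2 of the adjusted RPKM plus 1) and leaving out each library.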

Additional observations from a re-analysis of the deposited data

Results flagged for a closer look

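A library stood apart from the other 5 of its group, by the gap to its nearest neighbour as a share of the range, in 23 of 100 groups of 6 values (9 of them of members). Chance flags about 1 in 20 such groups, and genes with few counts have skewed values. Of the 23, 15 were NonTg libraries and 8 were P301S libraries, spread over 10 of the 12 libraries.

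Among the members, NonTg 2 was high in Fn1 (284.9 CPM, others at most 10.5) and Cd44 (34.9, others at most 6.49). NonTg 3 was high in Tgfbi (102.3 CPM, others at most 16.4), and NonTg 3 and NonTg 4 in the low values of Spp1 (1.83, others at most 0.812), Lox (0.914, from 1 count) and Fam20c (3.56, others at most 0.812). NonTg 5 held the single Lgals3 count of its group (0.812 CPM). Mmp12 stood high in NonTg 1 (22.3 CPM, others at most 8.22) and in P301S 2 (23.1, others at most 8.25).

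Among other genes named, NonTg 1 was high in Itga4 (72.2 CPM, others at most 19.5) and Loxl2 (17.9, others at 0), NonTg 4 in Fam20b (18.5) and Mmp9 (16.4), NonTg 5 in Lgals9 (64.1), and NonTg 6 in Timp1 (0.268, from 1 count) and Lgals1 (2.95). P301S 6 was high in Fam20b (41.3 CPM, others at most 4.44), Pcolce (10.3) and Col6a3 (48.9, others at most 18.7), P301S 4 in Dipk2a (145.9, others at most 34.3), P301S 2 in Mmp9 (5.69) and Loxl2 (1.08), and P301S 1 in Timp1 (0.321, from 1 count).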

How the results depend on the processing

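Across 21 other settings (12 of them leaving out 1 library), the log2 fold changes of members ran from 5.05 to 8.88 (Spp1), 1.30 to 6.82 (Fam20c), 0.77 to 8.54 (Lox) and 1.06 to 1.35 (Timp2). Lox had a value in 20 of these settings, since it did not pass the filter with a minimum count of 30. The members were chosen on this contrast, so these ranges describe the processing and support nothing. The lowest values of the first 3 came from limma on log2 of the adjusted RPKM plus 1, a scale that shrinks low genes. Fn1 turned positive with voom (1.84), without NonTg 2 (2.73) and without the 3 libraries with islet hormone reads (2.67), a setting chosen after seeing the data. Without a filter on low counts 411 genes were higher and 652 lower, and with DESeq2 405 and 337, against 238 and 150. The count of pathway list genes that fell, 2, became 6 without a filter, 4 with DESeq2, 1 on the adjusted RPKM and 1 without the 3 libraries. Without those 3 libraries 173 genes were higher and 115 lower, and the log2 fold change was 0.64 for Mmp14 and 4.77 for Fam20c. Leaving out 1 library gave 182 to 242 genes higher and 91 to 169 lower, with 1 to 3 pathway list genes lower. The lowest counts of genes lower came without P301S 1 (91) or P301S 6 (96). The causes were not tested. No relation of Spp1 with another member passed in any setting, though with 1 library left out a single relation could not have passed. The chosen count filter left out Lgals3 and 121 of 191 pathway genes. Without it 29308 genes were fitted, and 5 members were called higher. No paired analysis was possible because the labels give no replicate numbers that the groups share.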

Other observations

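Among the 45 pairs of members, the closest within P301S was Fn1 with Mmp14 (r = 0.98, exact permutation p = 0.00278, adjusted p = 0.125, rho = 0.94, exact p = 0.0167, n = 6), and r was 0.79 without the 2 libraries farthest from the median of Fn1, P301S 1 and P301S 2. In NonTg the highest library of both was NonTg 2. Cd44 with Lox came next (r = 0.92, exact permutation p = 0.0194, adjusted p = 0.438, rho = 0.66, exact p = 0.175), but r was -0.08 without P301S 1 and P301S 2, so this relation rests on those libraries. No pair passed the adjustment over 45. With 720 orders of the 6 libraries a single pair could not have passed it, even at r = 1, so nothing is read from this. These pairs were looked at after the values were seen.

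Reads of Ins1, Ins2 and Iapp, genes of the pancreatic islet hormones insulin and amylin, stood high together in the same 3 libraries. NonTg 2 held 345.3, 215.8 and 52.2 CPM, P301S 4 held 586.7, 347.3 and 99.4 CPM, and P301S 6 held 194.4, 113.1 and 34.8 CPM. Outside them the highest values were 15.0 CPM of Ins1 in NonTg 4 and 16.0 CPM of Ins2 in P301S 2. Ranked by how far NonTg 2 exceeded the highest of the other NonTg libraries, Ins2, Iapp and Fn1 were the first 3 of 36528 genes and Ins1 the fifth. Fn1 in P301S 4 and P301S 6 was 20.0 and 18.2 CPM, close to the P301S median of 19.1 CPM.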
